A study of Mus musculus with 30 samples.

Results

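The 10 genes described here encode proteins of the neutrophil granule and of the acute phase response: Lcn2, Saa3, Hp, S100a8, S100a9, Ngp, Camp, Ltf, Elane and Mpo. They were taken by name from the 50686 genes in the files, by matching gene identifiers to symbols, and all 10 were found. RNA was measured in 30 libraries of cultured C57BL/6J mouse osteoclasts, the bone-resorbing cells that form when macrophage precursors fuse. They were grown from bone marrow-derived macrophages in medium with 10% FBS, 25 ng/ml of the survival factor M-CSF and 100 ng/ml of RANKL, which triggers osteoclast differentiation. The stated question was whether osteoclasts of different donor ages differ in expression when the donor is wild type (WT) or lacks Terc, the gene of the RNA that telomerase copies into telomere repeats (Terc-/-, called KO).

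Each of 10 groups held 3 libraries. Cultures kept until large multinucleated cells appeared came from KO donors of 1 and 6 months and from WT donors of 1, 6 and 20 months. A second set of KO libraries of 1 and 6 months carries the number 519 in its titles (set 519), and a second set of WT libraries of 1 month carries a tag beginning with D1 (set D1). The labels explain neither tag, so these sets were kept apart, and the other libraries are called unprefixed. Cultures treated for 2 days came from WT donors of 6 and 20 months. Whether the 3 libraries of a group came from separate mice or dishes is not stated. The p-values therefore set each difference only against the spread among these libraries, and that spread may be technical.

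Neutrophils pack microbicidal proteins into granules as they mature in the bone marrow. Azurophil granules form first and hold Mpo, a peroxidase, and Elane, neutrophil elastase. Specific granules form later and hold Ltf, the iron-binding lactoferrin, Camp, the precursor of the antimicrobial peptide cathelicidin, and Ngp, a cystatin-like granule protein. S100a8 and S100a9 form calprotectin, a metal-binding dimer of the cytosol. Lcn2 binds bacterial siderophores and withholds iron, Saa3 is a serum amyloid A protein made outside the liver, and Hp, haptoglobin, binds free haemoglobin. These last 3 genes are known to be induced in macrophages and other cells by interleukin-1, interleukin-6 and bacterial products, through NF-kB, STAT3 and C/EBP factors. The granule genes proper are transcribed in marrow precursors and are largely silent in mature cells.

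Total counts per library ran from 4269798 to 25147975, with set 519 the shallowest at 4269798 to 12987993. The targeted gene could not check the genotype labels: Terc had 0 counts in the 12 KO libraries, which allows up to 0.0162 CPM (the count scaled to a fixed library total), and 5 counts in 3 of the 18 WT libraries. Set D1 stood apart in sex-linked genes, with 816 to 908 CPM of Xist and 0 counts of Ddx3y, as in female cells. The other 9 groups had Xist at 0.454 CPM or less and Ddx3y at 54.8 CPM or more, as in male cells. Eif2s3y, also Y-linked, had 0 counts in set D1. It had 18.4 to 18.9 CPM in unprefixed KO and 15.6 to 19.0 CPM in set 519 KO of 1 month. The remaining groups had 49.9 to 71.4 CPM. Comparisons of KO of 1 month with unprefixed WT or with KO of 6 months carry this difference. The labels do not explain it. The labelled cell type also varied in its markers. The 11 osteoclast markers (Ctsk, Acp5, Mmp9 and others) summed to only 675 to 738 CPM in unprefixed KO and 2378 to 2507 CPM in unprefixed WT of 1 month. In set D1 they summed to 44282 to 46720 CPM and in WT of 6 months to 20849 to 22500.2 CPM.

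Of the 10 genes, 4 passed the filter on low counts that precedes the test (Lcn2, Saa3, Hp and S100a8), and 6 did not (S100a9, Ngp, Camp, Ltf, Elane and Mpo). A gene passes when it has enough counts in about as many libraries as a group holds, so passing can rest on the group where a gene is high, and no count over the 4 describes the whole set. Levels below are CPM scaled by TMM, a correction for library composition, as mean ± SD over 3 libraries.

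Saa3 (ENSMUSG00000040026, GRCm38 chromosome 7, 46711998-46715700, minus strand) was the most abundant. Its mean was 526 ± 63.2 CPM in unprefixed KO of 1 month and 12.5 ± 0.621 CPM in set 519 KO of the same age, the extremes of a 42.0-fold span. Next to the top came KO of 6 months with 266 ± 42.1 CPM, set D1 with 248 ± 23.7 CPM and WT of 1 month with 207 ± 53.2 CPM. These 3 neighbours overlapped in their libraries and cannot be ordered. Every other group lay at 45.8 CPM or below.

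Lcn2 (ENSMUSG00000026822, chromosome 2, 32384633-32388252, minus strand) followed a like order over a wider span of 61.7-fold. It was highest in KO of 1 month, at 58.2 ± 2.07 CPM, and lowest in WT of 20 months, at 0.943 ± 0.274 CPM. KO of 6 months (27.8 ± 5.70 CPM) overlapped WT of 1 month (20.8 ± 3.62 CPM), which overlapped set D1 (14.99 ± 3.23 CPM). The remaining 6 groups averaged 4.92 CPM or less.

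S100a8 (ENSMUSG00000056054, chromosome 3, 90668978-90670035, plus strand) spanned 17.3-fold, again with KO of 1 month at the top (18.0 ± 0.195 CPM) and WT of 20 months at the bottom (1.04 ± 0.223 CPM). Set D1 came next to the top with 15.04 ± 0.107 CPM, well clear of WT of 1 month with 6.08 ± 0.642 CPM. Per kilobase of exon, which allows genes to be compared, KO of 1 month held 202 CPM per kb of Saa3, 25.9 of S100a8, 22.2 of Lcn2 and 7.94 of Hp.

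Hp (ENSMUSG00000031722, chromosome 8, 109575128-109579172, minus strand) was ordered differently. The 2-day WT cultures of 6 months led with 26.7 ± 8.58 CPM, followed by set D1 with 19.3 ± 0.918 CPM and KO of 1 month with 12.7 ± 3.41 CPM. The lowest group was set 519 KO of 1 month with 2.14 ± 0.255 CPM, a span of 12.5-fold. From KO of 1 month down to set 519 KO of 6 months, each of the 6 neighbouring pairs overlapped.

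**Figure D1:**
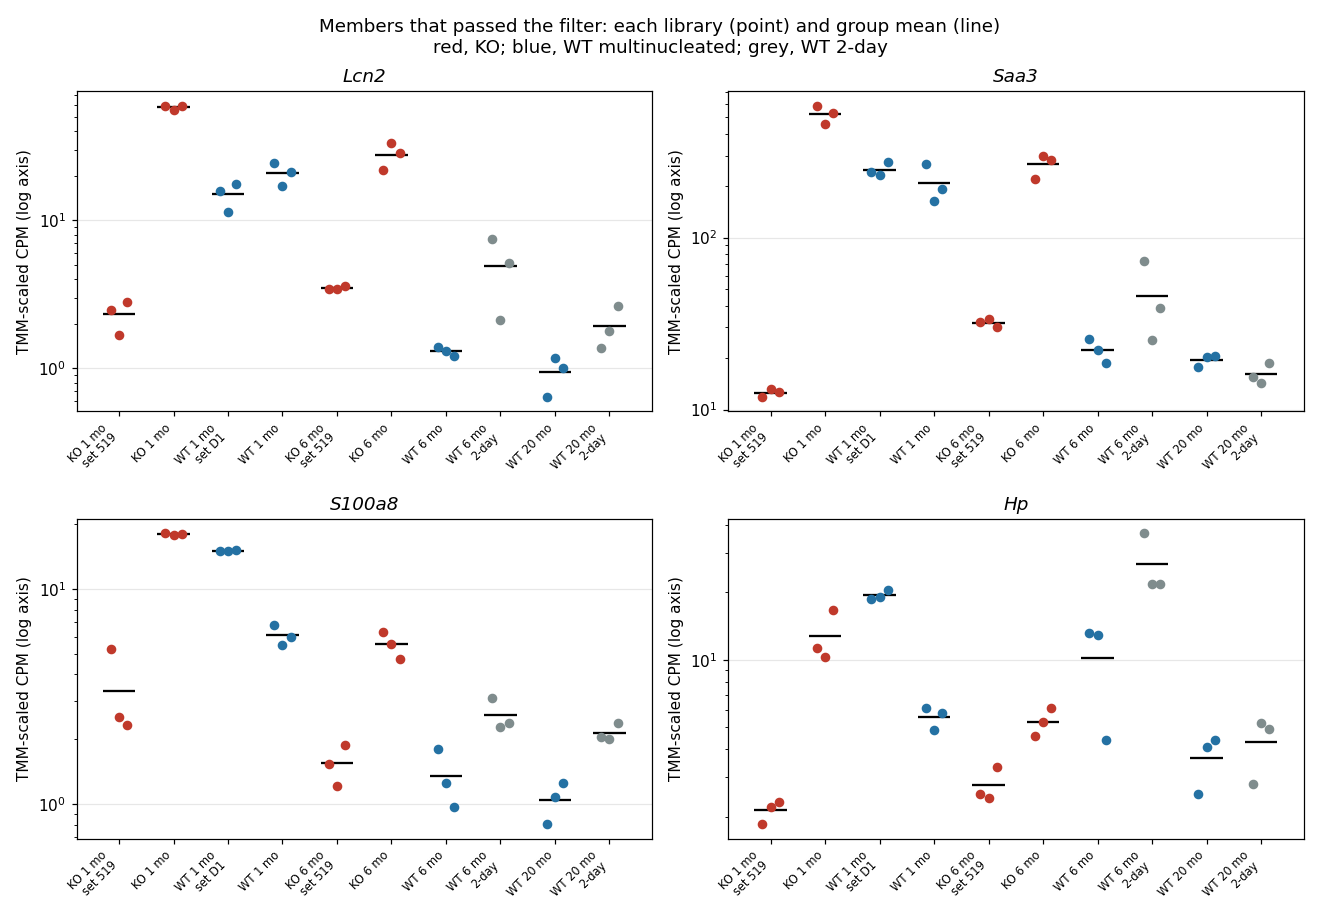
TMM-scaled CPM (log axis) of Lcn2, Saa3, S100a8 and Hp in each library (points) with the group mean (line) for the 10 groups; red is KO, blue WT multinucleated and grey WT 2-day cultures. Lcn2, Saa3 and S100a8 peak in unprefixed KO of 1 month (58.2, 526 and 18.0 CPM), while Hp peaks in the 2-day WT cultures of 6 months (26.7 CPM).

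In multinucleated cultures of 1-month donors, the 4 genes were all higher in unprefixed KO than in unprefixed WT. Lcn2 had 59.0, 55.8 and 59.7 CPM in KO libraries, against 24.3, 17.1 and 21.1 CPM in WT libraries, and Saa3 had 586, 460 and 532 CPM against 266, 164 and 191 CPM. S100a8 had 18.1, 17.8 and 18.0 CPM in KO libraries, against 6.76, 5.49 and 5.98 CPM in WT libraries, and Hp 11.3, 10.3 and 16.6 CPM against 6.07, 4.87 and 5.77 CPM. No KO library overlapped a WT library for any of the 4. The log2 fold change ± SE was 1.57 ± 0.14 for S100a8 (adjusted p = 2.4e-11 by edgeR's quasi-likelihood test with Benjamini-Hochberg adjustment, as for every adjusted p below). It was 1.48 ± 0.16 for Lcn2 (4.2e-09), 1.35 ± 0.18 for Saa3 (1.9e-07) and 1.20 ± 0.25 for Hp (2.5e-04). All 4 tested genes were thus called, in a comparison where 41.4% of the 15310 genes tested were called and 20.7% were called as higher.

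In 6-month donors the same comparison gave larger differences for Lcn2 and Saa3. Lcn2 had 21.8, 33.1 and 28.6 CPM in KO libraries, against 1.40, 1.31 and 1.21 CPM in WT libraries, a 21.3-fold difference (4.41 ± 0.26, adjusted p = 1.5e-16). Saa3 had 218, 297 and 284 CPM in KO libraries, against 25.7, 22.1 and 18.7 CPM in WT libraries, 12.1-fold (3.59 ± 0.21, adjusted p = 1.8e-16). S100a8 had 6.31, 5.53 and 4.73 CPM in KO libraries, against 1.81, 1.26 and 0.968 CPM in WT libraries, 4.15-fold (2.05 ± 0.20, adjusted p = 6.9e-11). Groups did not overlap for these 3 genes. Hp went the other way, at 4.56, 5.27 and 6.09 CPM in KO libraries, against 13.2, 12.9 and 4.41 CPM in WT libraries (-0.92 ± 0.26, adjusted p = 0.0031). WT replicate 4 lay below every KO library, so the Hp groups overlapped. Again all 4 were called, against 60.0% of all genes tested (30.5% higher in KO and 29.5% lower).

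The KO effect itself was tested for a difference between ages. The log2 KO effect was larger at 6 months than at 1 month by 2.93 ± 0.33 for Lcn2 (adjusted p = 3.8e-09) and by 2.25 ± 0.27 for Saa3 (1.8e-08). For Hp the effect at 6 months minus that at 1 month was -2.12 ± 0.37 (1.2e-05), a change of sign. For S100a8 the difference was 0.49 ± 0.25 (adjusted p = 0.11), and without WT replicate 2 of 6 months it was 0.74 and passed (adjusted p = 0.027). These 3 calls among the 4 tested genes stand beside 48.6% called over all genes.

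Other markers moved with these differences. All 11 osteoclast markers were lower in unprefixed KO than in WT at 1 month (median log2 fold change -2.31, all genes -0.0012) and at 6 months (-2.95, all genes -0.021). Of 11 macrophage markers, 11 were higher in KO at 1 month (0.66) and 10 at 6 months (1.37), where 1 was lower. Of all genes, 20.7% were higher and 20.8% lower at 1 month, and 30.5% higher and 29.5% lower at 6 months. In these bulk libraries fewer cells of a type and less RNA per cell cannot be told apart, and the part that less osteoclast differentiation had in the levels of Lcn2, Saa3, Hp and S100a8 was not tested.

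At 1 month all 4 tested genes were lower in the KO libraries of set 519 than in unprefixed WT. Set 519 KO had 2.47, 1.68 and 2.81 CPM of Lcn2, against 24.3, 17.1 and 21.1 CPM in unprefixed WT, 9.82-fold lower (-3.30 ± 0.31, adjusted p = 3.6e-11). Saa3 had 11.9, 13.1 and 12.6 CPM in set 519 KO, against 266, 164 and 191 CPM in WT, 16.4-fold lower (-4.03 ± 0.25, adjusted p = 2.2e-15). The sign was thus opposite to that of unprefixed KO against the same WT libraries, which both comparisons share. S100a8 (-0.89 ± 0.21, adjusted p = 4.05e-04) and Hp (-1.38 ± 0.43, adjusted p = 0.0071) were lower as well, with no overlap of libraries. The 4 calls stand beside 57.0% of all genes.

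At 6 months, against the WT libraries that the unprefixed comparison also used, Lcn2 was higher and Hp lower in set 519 KO. Set 519 KO had 3.44, 3.46 and 3.59 CPM of Lcn2, against 1.40, 1.31 and 1.21 CPM in WT (1.42 ± 0.40, adjusted p = 0.0034). Hp had 2.53, 2.42 and 3.33 CPM in set 519 KO, against 13.2, 12.9 and 4.41 CPM in WT (-1.82 ± 0.36, adjusted p = 5.6e-05). These were the 2 called genes, with 51.6% of all genes called. Saa3 had 32.4, 33.6 and 30.003 CPM in set 519 KO, against 25.7, 22.1 and 18.7 CPM in WT. Its groups did not overlap, but the difference missed the threshold (0.53 ± 0.24, adjusted p = 0.063) and passed without WT replicate 2 (0.64, adjusted p = 0.045). It also passed with no filter on low counts (0.49, adjusted p = 5.4e-08) and when only the compared groups were fitted (0.53, adjusted p = 9.4e-06). S100a8 differed by 0.28 ± 0.30 (adjusted p = 0.45), with overlap.

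Set 519 and unprefixed KO carry the same genotype and age labels, yet all 4 tested genes were lower in set 519. At 1 month Saa3 was 41.6-fold lower (-5.38 ± 0.25, adjusted p = 2.1e-18), Lcn2 27.4-fold lower (-4.78 ± 0.28), Hp 5.98-fold lower (-2.58 ± 0.39) and S100a8 5.48-fold lower (-2.46 ± 0.19), with 50.0% of all genes called. At 6 months Saa3 was 8.38-fold lower (-3.07 ± 0.22, adjusted p = 5.6e-14), Lcn2 7.93-fold lower (-2.99 ± 0.25) and S100a8 3.42-fold lower (-1.77 ± 0.23), with 49.1% of all genes called. Hp was 1.87-fold lower at 6 months (-0.91 ± 0.38, adjusted p = 0.049). That call was lost without KO replicate 2 (-0.92, adjusted p = 0.073) or 3 (-0.80, 0.12), and without set 519 replicate 2 (-0.80, 0.16), 3 (-0.83, 0.11) or 4 (-1.09, 0.070). Set 519 also held more osteoclast marker RNA, at 7050.2 to 8268 CPM against 675 to 738 CPM in unprefixed KO at 1 month, and 26593 to 27789.9 CPM against 2479 to 2778 CPM at 6 months. What set the title sets apart cannot be told from the labels.

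Between the ages of KO donors, unprefixed cultures of 6 months held less of all 4 tested genes than those of 1 month. The log2 fold change was -1.70 ± 0.14 for S100a8 (adjusted p = 3.4e-12), -1.27 ± 0.26 for Hp (1.5e-04), -1.06 ± 0.16 for Lcn2 (1.6e-06) and -0.98 ± 0.18 for Saa3 (3.5e-05), with 37.5% of all genes called (19.7% higher and 17.8% lower). In set 519, 2 genes were called, with 32.5% of all genes called. Saa3 was higher at 6 months (1.33 ± 0.30, adjusted p = 5.4e-04) and S100a8 lower (-1.02 ± 0.29, adjusted p = 0.0059). The S100a8 call rested on set 519 replicate 2 of 1 month, which had 5.24 CPM beside 2.53 and 2.34 CPM in the other libraries of its group. Without it the log2 fold change was -0.62 (adjusted p = 0.12). The age difference in set 519 exceeded that in unprefixed KO by 2.31 ± 0.34 for Saa3 (adjusted p = 8.1e-06) and by 1.79 ± 0.47 for Lcn2 (adjusted p = 0.0071), beside 14.9% of all genes called. Without set 519 replicate 3 of 1 month the Lcn2 value was 1.49 and no longer passed (adjusted p = 0.075). S100a8 (0.68 ± 0.33, adjusted p = 0.18) passed without set 519 replicate 2 of 1 month (1.08, adjusted p = 0.019). Hp (1.67 ± 0.60, adjusted p = 0.056) passed without KO replicate 2 of 1 month (1.79, adjusted p = 0.034).

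Set D1 offered a second group of WT of 1 month. Set D1 held 15.03, 14.9 and 15.2 CPM of S100a8, against 6.76, 5.49 and 5.98 CPM in unprefixed WT, 2.48-fold more (1.31 ± 0.14, adjusted p = 2.7e-10). Hp was 3.46-fold higher in set D1 (1.79 ± 0.25, adjusted p = 7.5e-08), at 18.7, 19.0 and 20.4 CPM against 6.07, 4.87 and 5.77 CPM. Neither gene overlapped between the sets. Lcn2 was lower (-0.46 ± 0.18, adjusted p = 0.020, with overlap), a call that was lost without WT replicate 1 (-0.35, adjusted p = 0.093) or set D1 replicate 2 (-0.32, adjusted p = 0.13), and with DESeq2 (-0.42, adjusted p = 0.15). Saa3 differed by 0.26 ± 0.18 (adjusted p = 0.18), and by 0.48 without WT replicate 1 (adjusted p = 0.017). The 3 calls stand beside 74.5% of all genes (37.5% higher and 36.9% lower).

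The KO comparison at 1 month was repeated with set D1 as the WT group. Against set D1, unprefixed KO had more Lcn2 (1.95 ± 0.17, adjusted p = 3.5e-12) and Saa3 (1.08 ± 0.18, adjusted p = 1.9e-06), 2 of 3 calls beside 73.7% of all genes (38.2% higher and 35.5% lower). Hp was lower in KO than in set D1 (-0.59 ± 0.23, adjusted p = 0.020), the opposite sign to that against unprefixed WT. That call was lost without KO replicate 1 (-0.49, adjusted p = 0.079) or 2 (-0.46, 0.085) and without set D1 replicate 3 (-0.54, 0.060). S100a8, with 18.1, 17.8 and 18.0 CPM in KO and 15.03, 14.9 and 15.2 CPM in set D1, did not pass (0.26 ± 0.13, adjusted p = 0.066). Its groups did not overlap, and it passed with no filter on low counts (0.30, adjusted p = 0.037). It also passed without the unused libraries of set 519 (0.25, adjusted p = 0.048). Of the 4 genes, Lcn2 and Saa3 were called as higher in unprefixed KO whichever WT set stood beside it, and S100a8 was near the threshold against set D1. Set D1 was not a matched control, since its Xist and Ddx3y were as in female cells and those of unprefixed KO as in male cells. The 2 groups also differed in genotype. Its osteoclast markers summed to 44282 to 46720 CPM, against 675 to 738 CPM in unprefixed KO. The part of these differences in the levels of the 4 genes was not tested.

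Along the ages of WT donors in multinucleated cultures, the fall came between 1 and 6 months. Lcn2 averaged 20.8, 1.31 and 0.943 CPM at 1, 6 and 20 months, Saa3 207, 22.1 and 19.4 CPM, and S100a8 6.08, 1.35 and 1.04 CPM. At 6 months against 1 month, Lcn2 was 15.9-fold lower (-3.99 ± 0.26, adjusted p = 4.5e-15), Saa3 9.38-fold lower (-3.23 ± 0.21, adjusted p = 2.7e-15) and S100a8 4.57-fold lower (-2.19 ± 0.20, adjusted p = 1.1e-11), with no overlap. Hp was 1.80-fold higher (0.85 ± 0.26, adjusted p = 0.0055), with 13.2, 12.9 and 4.41 CPM at 6 months against 6.07, 4.87 and 5.77 CPM at 1 month. The Hp call was lost without WT replicate 2 (0.62, adjusted p = 0.064) or 3 (0.60, adjusted p = 0.073) of 6 months, and replicate 4 lay below all 1-month libraries. All 4 were called, beside 63.6% of all genes (31.2% higher at 6 months and 32.5% lower). At 20 months against 1 month, Lcn2 (-4.45 ± 0.28), Saa3 (-3.41 ± 0.21) and S100a8 (-2.53 ± 0.20) were lower, the 3 calls beside 68.6% of all genes. Hp (-0.60 ± 0.30, adjusted p = 0.081) was not called, though its groups did not overlap. It passed with no filter on low counts (-0.61, adjusted p = 2.7e-04) and when only the compared groups were fitted (-0.58, adjusted p = 0.017).

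From 6 to 20 months, only Hp among the 4 changed (-1.44 ± 0.29, adjusted p = 4.8e-04), 1 call beside 14.3% of all genes (7.39% higher and 6.90% lower). It had 2.52, 4.07 and 4.41 CPM at 20 months, against 13.2, 12.9 and 4.41 CPM at 6 months, so the groups met at their edge. Lcn2 (-0.46 ± 0.46, adjusted p = 0.58), Saa3 (-0.18 ± 0.23, adjusted p = 0.67) and S100a8 (-0.34 ± 0.27, adjusted p = 0.47) did not pass. Osteoclast markers went with the earlier step: 11 of 11 were higher at 6 months than at 1 month (median log2 fold change 2.98), and their part in it was not tested.

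Cultures at the multinucleated stage were compared with 2-day cultures in WT of 6 and 20 months. At 6 months all 4 tested genes were lower in multinucleated cultures, with 50.8% of all genes called. Lcn2 had 1.40, 1.31 and 1.21 CPM in multinucleated cultures, against 7.51, 2.12 and 5.13 CPM at 2 days (-1.92 ± 0.33, adjusted p = 8.3e-06), and Hp 13.2, 12.9 and 4.41 CPM against 36.6, 21.8 and 21.6 CPM (-1.41 ± 0.23, adjusted p = 3.1e-06). The groups were apart for both genes, though the 2-day libraries spread widely. Saa3 (-1.05 ± 0.21, adjusted p = 9.3e-05) overlapped by 1 library on each side, and S100a8 (-0.96 ± 0.23, adjusted p = 6.5e-04) did not overlap.

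At 20 months, Lcn2 (-1.06 ± 0.43, adjusted p = 0.036) and S100a8 (-1.04 ± 0.25, adjusted p = 7.5e-04) were lower in multinucleated cultures, 2 calls beside 52.3% of all genes. Lcn2 had 0.643, 1.18 and 1.01 CPM in multinucleated cultures, against 1.37, 1.78 and 2.63 CPM at 2 days. Its call was lost without multinucleated replicate 1 (-0.86, adjusted p = 0.13) or 4 (-1.11, adjusted p = 0.066) and without 2-day replicate 3 (-0.75, adjusted p = 0.23). Saa3 (0.26 ± 0.24, adjusted p = 0.37) and Hp (-0.25 ± 0.33, adjusted p = 0.54) were not called. The stage effect at 20 months minus that at 6 months was 1.32 ± 0.32 for Saa3 (adjusted p = 0.0047), the only call of 4 beside 12.4% of all genes. For Hp it was 1.15 ± 0.40 (adjusted p = 0.054) and passed without 2-day replicate 2 (1.26, adjusted p = 0.043) or 4 (1.28, 0.039) of 6 months, without multinucleated replicate 2 (1.38, 0.022) or 3 (1.37, 0.027) of 6 months, and without multinucleated replicate 1 of 20 months (1.36, 0.033).

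Among 2-day cultures themselves, those of 20-month donors had less Hp, Saa3 and Lcn2 than those of 6-month donors, 3 calls beside 18.8% of all genes (7.48% higher and 11.3% lower). Hp had 2.81, 5.22 and 4.91 CPM at 20 months, against 36.6, 21.8 and 21.6 CPM at 6 months, 6.05-fold lower (-2.60 ± 0.26, adjusted p = 2.7e-09). Saa3 had 15.5, 14.3 and 18.6 CPM at 20 months, against 72.8, 25.5 and 39.1 CPM at 6 months (-1.50 ± 0.22, adjusted p = 6.6e-06). The lowest 6-month library of either gene lay above the highest 20-month one. Lcn2 overlapped (-1.31 ± 0.31, adjusted p = 0.0023) and lost its call without 2-day replicate 1 of 6 months (-0.89, adjusted p = 0.052). S100a8 differed by -0.26 ± 0.21 (adjusted p = 0.43).

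**Figure D2:**
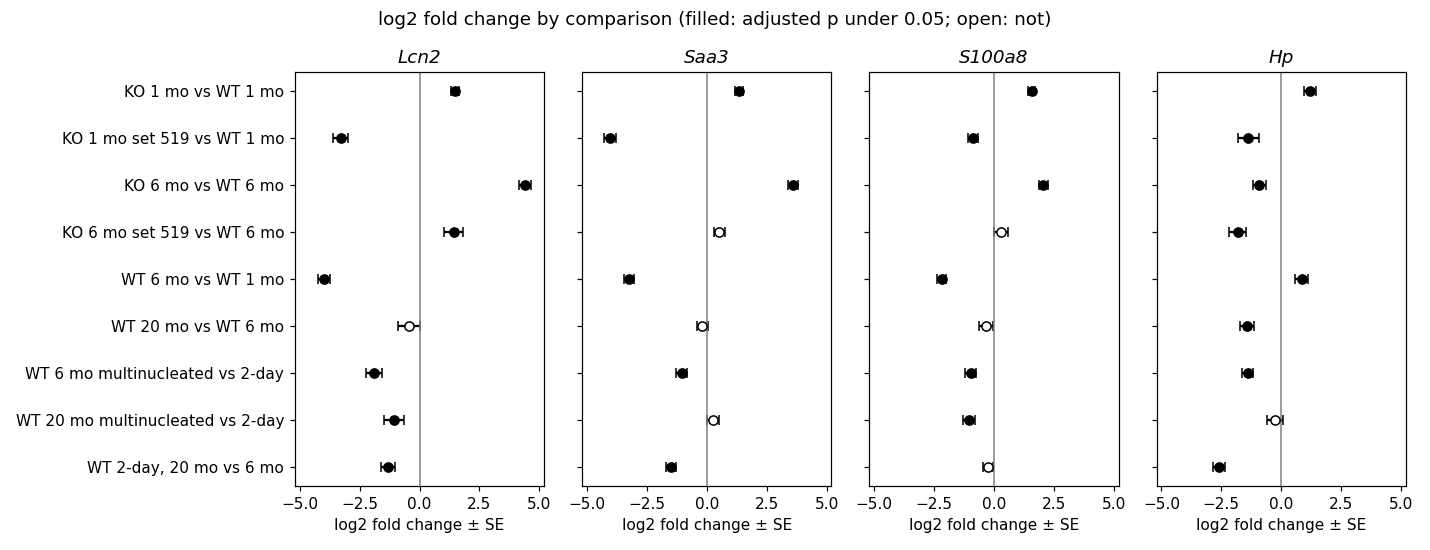
log2 fold change ± SE (horizontal axis) of Lcn2, Saa3, S100a8 and Hp in 9 comparisons (rows); filled points have an adjusted p under 0.05. Unprefixed KO against WT of 6 months has the largest positive values for Lcn2 (4.41) and Saa3 (3.59), and set 519 KO against WT of 1 month lies on the other side of 0 for all 4 genes.

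The partners of calprotectin were counted at very different levels. S100a8 was counted in all 30 libraries, whereas S100a9 (ENSMUSG00000056071, chromosome 3, 90692632-90695721, minus strand) had 67 counts in 5 libraries. The group sums were 1020 S100a8 and 0 S100a9 counts in unprefixed KO of 1 month, 796 and 0 in set D1, 372 and 0 in unprefixed KO of 6 months, and 399 and 11 in unprefixed WT of 1 month. In the pair of groups with the most S100a8, its partner was at 0, which allows up to 0.0481 CPM in KO of 1 month. S100a9 appeared in 3 places: 22, 4 and 24 counts in the 2-day libraries of 20 months, 11 counts in WT replicate 4 of 1 month and 6 counts in multinucleated WT replicate 2 of 20 months. Per 100 counts of S100a8 this came to 44.2, 2.76 and 9.84 over those groups. In 2-day cultures S100a9 had 50 counts at 20 months and 0 at 6 months. With the 0 read as 3 counts over the group, that is 18.0-fold, which leaves out the error of the 50 counts. The difference passed in edgeR with no filter (7.05, adjusted p = 8.0e-07) but not in DESeq2's Wald test (6.61, unadjusted p = 0.31). S100a8 differed by 1.20-fold in the opposite direction and was not called in the main edgeR test (-0.26 ± 0.21, adjusted p = 0.43).

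The granule genes were near the detection limit throughout. Over all 30 libraries Ngp (ENSMUSG00000032484, chromosome 9, 110419747-110423012, plus strand) had 34 counts, Ltf (ENSMUSG00000032496, chromosome 9, 111019271-111042767, plus strand) 30, Mpo (ENSMUSG00000009350, chromosome 11, 87793581-87804413, plus strand) 23 and Elane (ENSMUSG00000020125, chromosome 10, 79886247-79888215, plus strand) 7. Mpo is overlapped by an antisense gene, Gm11505, and no strand option is recorded for the counting, so its few counts cannot be told apart from those of that gene. Together with S100a9, these genes gave 161 counts. The libraries with 10 or more of them were the 2-day ones of 20 months (28, 15 and 42 counts for replicates 1, 2 and 3), WT replicate 4 of 1 month (34) and multinucleated WT replicate 2 of 20 months (10). The other 25 libraries had at most 7, and 10 had 0.

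Camp (ENSMUSG00000038357, chromosome 9, 109847379-109849617, minus strand) was spread differently, with 101 counts over 27 libraries and at most 11 in any. In unprefixed KO of 1 month it had 19 counts, or 0.305 CPM of the library total (exact Poisson 95% interval 0.183 to 0.476, counting error only), against 22 counts and 0.322 CPM (0.202 to 0.487) in WT of 1 month. In KO of 6 months it had 19 counts, 0.274 CPM (0.165 to 0.428), against 7 counts and 0.127 CPM (0.0510 to 0.261) in WT of 6 months. Both pairs of intervals overlapped. Multinucleated WT of 20 months had 3 counts, 0.0542 CPM (0.0112 to 0.158). With no filter, the Camp difference between WT of 20 months and WT of 1 month passed (-2.57, adjusted p = 0.011).

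**Figure D3:**
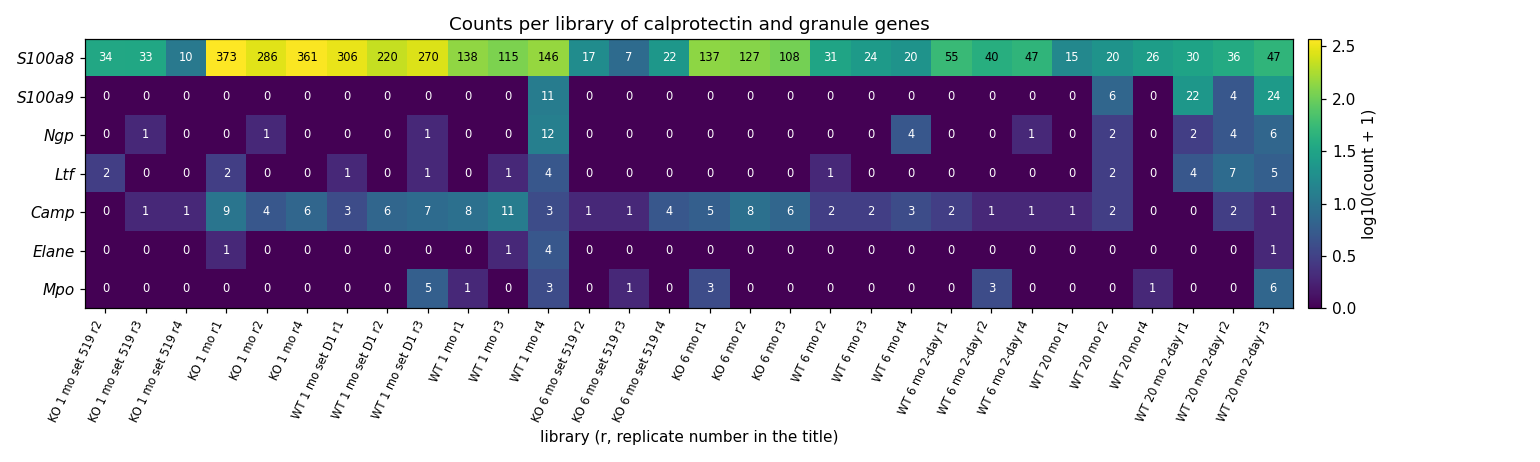
Counts (numbers in the cells; colour is log10 of count + 1) of S100a8, S100a9, Ngp, Ltf, Camp, Elane and Mpo in each of the 30 libraries. S100a8 reaches 373 counts in KO of 1 month where S100a9 is at 0, and S100a9 reaches 24 in the 2-day libraries of 20 months.

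Markers that define neutrophils did not share one pattern. Of 16 listed, 4 to 6 were at 0 in each group. Mrgpra2a had no count in any library, Ly6g averaged 0.0175 CPM in WT of 6 months, 0.0169 CPM in 2-day WT of 6 months and 0 in the other 8 groups, and Retnlg averaged 0.0357 CPM in WT of 20 months and 0 elsewhere. The summed level was 78.3 to 81.1 CPM in unprefixed KO and 51.1 to 56.1 CPM in unprefixed WT at 1 month, 44.4 to 52.2 CPM in unprefixed KO and 15.04 to 18.2 CPM in WT at 6 months, and 95.0 to 99.9 CPM in set D1. Most of that sum was Mmp8, neutrophil collagenase, and Csf3r, the G-CSF receptor, which macrophage-lineage cells also express. Csf3r had 27.3 CPM in KO of 1 month and 15.5 CPM in KO of 6 months, against 11.9 and 5.75 CPM in WT of the same ages. Mmp8 had 29.8 CPM in KO and 29.1 CPM in WT of 1 month, and 64.6 CPM in set D1.

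Stfa3, a stefin of neutrophils named after its values were seen, was high in several of the groups with high Lcn2 and S100a8. It had 93 counts in unprefixed KO and 83 in unprefixed WT of 1 month (0.39 ± 0.31, adjusted p = 0.33), and 153 in set D1. It had 76 counts in unprefixed KO of 6 months and 0 in WT of 6 months, and 0 and 2 counts in set 519 KO of 1 and 6 months. Stfa3 belongs to a family of near-identical genes, so its counts are uncertain.

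Cxcr2, the chemokine receptor of mature neutrophils, was ordered differently from Lcn2 and Saa3. It was highest in the 2-day WT cultures, at 2.11 CPM at 20 months and 1.23 CPM at 6 months, and was lower in KO than in WT of 6 months (-1.58 ± 0.42, adjusted p = 0.0014). Over the list, 3 of 7 measured markers were higher and 0 lower in unprefixed KO at 1 month, and 6 higher and 1 lower at 6 months. In set 519 KO of 1 month 1 was higher and 5 lower than in WT. Of all genes, 41.4%, 60.0% and 57.0% were called in these comparisons, so the count at 1 month was near the share over all genes. Of 6 other specific and gelatinase granule genes measured, 4 were higher and 0 lower in unprefixed KO at 1 month. At 6 months 6 were higher, and in set 519 KO of 1 month 2 were higher and 1 lower. The list summed to 4020 to 4256 CPM in unprefixed KO and 4040 to 4225 CPM in set 519 KO of 1 month. These sums were alike, whereas Lcn2 and Saa3 were far lower in set 519. In WT of 1 month it summed to 2899 to 3085 CPM. The list held 10 genes, of which 2 had no count in unprefixed KO and 2 in set 519 KO of 1 month. Which genes carried the sum is not given, and the sum cannot tell which cells the RNA came from. Ngp, Camp and Ltf together reached at most 0.778 CPM in any library. Of 6 other genes listed with the azurophil granule, Prtn3, Ctsg, Prss57 and the progenitor marker Ms4a3 averaged at most 0.114 CPM in any group. Bpi, an antibacterial protein, and Serpinb1a, an inhibitor of neutrophil proteases, carried nearly all of that list. Bpi had 0.271 CPM in KO and 0.680 CPM in WT of 1 month (-1.23 ± 0.39, adjusted p = 0.011), and 0.755 CPM in KO and 4.61 CPM in WT of 6 months (-2.59 ± 0.23, adjusted p = 6.4e-12). Serpinb1a had 3.05 CPM in KO and 4.03 CPM in WT of 1 month (-0.41 ± 0.18, adjusted p = 0.071), and 10.003 CPM in KO and 10.4 CPM in WT of 6 months (-0.07 ± 0.13, adjusted p = 0.69). The part that carried-over granulocytes had in the levels of Lcn2, Saa3, Hp and S100a8 was not tested beyond these values.

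Macrophage-lineage RNA was abundant in every group. The 11 macrophage markers summed to 46900.3 to 50327 CPM in unprefixed KO and 28795 to 31333 CPM in unprefixed WT of 1 month, and to 27590.6 to 28278 CPM in KO and 11523 to 11702 CPM in WT of 6 months. Of these, Lyz2, lysozyme M, had 38896 CPM in KO and 23556 CPM in WT of 1 month, and Adgre1, a surface receptor of macrophages, had 2939.75 CPM in KO and 1661 CPM in WT. The order of the groups by 8 stromal markers matched that by Hp only at the top. These markers summed to 3440.4 to 3749 CPM in the 2-day WT cultures of 6 months and 3420.3 to 3734 CPM in set D1, the groups with the most Hp. They summed to 2826 to 3004 CPM in the 2-day cultures and 2417 to 2783 CPM in the multinucleated cultures of 20 months, where Hp averaged 4.31 and 3.67 CPM, and to only 514 to 595 CPM in KO of 1 month, where Hp averaged 12.7 CPM. Whether stromal cells had a part in the Hp levels was not tested.

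Cytokines that induce acute phase genes mostly differed in the direction of Lcn2 and Saa3 between unprefixed KO and unprefixed WT at both ages. So they did between set 519 KO and unprefixed WT at 1 month, but not between unprefixed KO and set D1. Of 7 measured, 5 were higher and 0 lower in unprefixed KO than in WT at 1 month (median log2 fold change 0.43, all genes -0.0012), where 20.7% of all genes were higher and 20.8% lower. At 6 months 6 were higher and 1 lower (2.73, all genes -0.021), beside 30.5% and 29.5% of all genes. In set 519 KO of 1 month, 0 were higher and 5 lower than in WT (-3.23, all genes 0.014), beside 27.2% and 29.8% of all genes. Between unprefixed KO and set D1, 2 were higher and 2 lower, beside 38.2% and 35.5% of all genes. The list summed to 99.2 to 116 CPM in unprefixed KO of 1 month and 111 to 120.04 CPM in set D1, although Lcn2 and Saa3 were lower in set D1. Interleukin-1 beta, Il1b, averaged 10.6 CPM in unprefixed KO and 0.206 CPM in set 519 KO, against 6.36 CPM in unprefixed WT at 1 month. At 6 months Il1b averaged 11.2 CPM in unprefixed KO and 0.208 CPM in set 519 KO, against 0.984 CPM in WT. In set 519 KO of 6 months Il1b thus lay below WT, whereas Lcn2 lay above it. The whole list summed to 50.9 to 59.3 CPM there, against 41.4 to 47.96 CPM in WT of 6 months. The Il1b difference was 3.53 ± 0.36 in unprefixed KO of 6 months (adjusted p = 3.4e-10) and -4.63 ± 0.68 in set 519 KO of 1 month (adjusted p = 5.2e-07). Il6, chosen for mention after its values were seen, averaged 1.52 CPM in unprefixed KO, 6.46 CPM in set D1 and 0.553 CPM in unprefixed WT of 1 month. It was higher in unprefixed KO than in unprefixed WT (1.44 ± 0.34, adjusted p = 9.7e-04) and lower than in set D1 (-2.06 ± 0.26, adjusted p = 1.3e-08). Osm, oncostatin M, was higher in unprefixed KO at 6 months (1.96 ± 0.19, adjusted p = 8.3e-11) and lower in set 519 KO at 1 month (-1.08 ± 0.20, adjusted p = 1.7e-05).

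Tnf and Lif did not follow. Tnf was higher in unprefixed KO at 1 month (0.43 ± 0.08, adjusted p = 1.8e-05) and 6 months (1.79 ± 0.08, adjusted p = 4.8e-19), but in set 519 KO of 1 month it had 51.4 CPM against 49.99 CPM in WT (0.04 ± 0.08, adjusted p = 0.70). Lif, a cytokine of the interleukin-6 family, was lower in KO of 6 months (-2.16 ± 0.12, adjusted p = 2.6e-17). Among 11 cytokine and Toll-like receptors, 7 were higher and 3 lower in unprefixed KO at 6 months (median 0.45), where 60.0% of all genes were called. Tlr2, which senses bacterial lipoproteins, had 262 CPM in KO against 64.2 CPM in WT (2.03 ± 0.07, adjusted p = 4.4e-23).

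Transcription factors known to act on these genes gave 10 of 12 higher and 0 lower in unprefixed KO at 6 months (median 0.51), and 5 higher and 4 lower at 1 month (0.097). Of all genes, 60.0% were called at 6 months and 41.4% at 1 month. Cebpb, a C/EBP factor of the acute phase, had 24.8 CPM in KO and 3.82 CPM in WT of 6 months (2.70 ± 0.18, adjusted p = 3.0e-15). In set 519 KO of 6 months, Cebpb was likewise higher than in WT, at 20.4 CPM (2.43 ± 0.19, adjusted p = 1.2e-12). Socs3, a feedback inhibitor induced by STAT3, separated the sets: it averaged 41.6 CPM in unprefixed KO and 10.7 CPM in set 519 KO, against 7.80 CPM in WT of 6 months.

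Other acute phase genes were mostly silent, with 8 of 21 passing the filter. Of these 8, 7 were higher in unprefixed KO at 1 month (median 1.07), and 3 higher and 2 lower at 6 months (0.041). With 41.4% of all genes called at 1 month and 60.0% at 6 months, the count at 6 months was near the share over all genes. The complement component C3 had 1167 CPM in KO and 774 CPM in WT of 1 month, and 1129 CPM in KO and 232 CPM in WT of 6 months. The liver-type genes Saa1, Saa2, Crp and Apcs averaged at most 0.0477 CPM in any group. Slpi, an inhibitor of neutrophil elastase, resembled Saa3: it averaged 50.7 CPM in unprefixed KO and 2.65 CPM in set 519 KO, against 21.2 CPM in WT of 1 month. Among binding partners, the formyl peptide receptors Fpr1 (2.05 ± 0.12) and Fpr2 (1.93 ± 0.16) were higher in KO of 6 months, as was Hmox1 (1.78 ± 0.07), the haem oxygenase that degrades haem taken up with haptoglobin. The haptoglobin receptor Cd163 did not change at that age (-0.08 ± 0.17, adjusted p = 0.69).

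**Figure D4:**
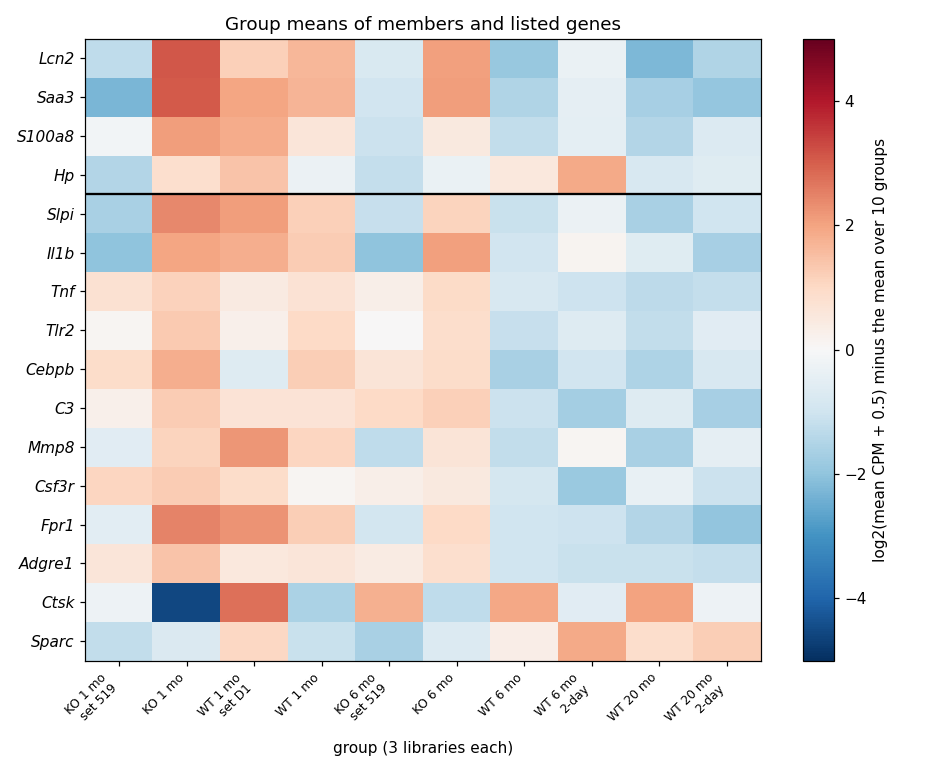
log2(mean CPM + 0.5) of each gene in each of the 10 groups, minus its mean over the groups (colour), for the 4 tested genes (above the line) and listed genes below it. Slpi, Il1b and Fpr1 are high in unprefixed KO of 1 month with Lcn2 and Saa3, while Ctsk is lowest there (72.6 CPM).

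Over the 10 group means of log2 CPM, which share libraries and depth and are described without a test, Lcn2 and Saa3 had a Pearson correlation of 0.96, Lcn2 and S100a8 0.90, and Saa3 and S100a8 0.87. Hp reached 0.38 to 0.49 with the other 3. The genes most like Lcn2 were 2010005H15Rik (0.98), Marcksl1 (0.97) and Trem1 (0.97), an amplifying receptor of myeloid cells. Those most like Saa3 were Susd2 (0.98), Slpi (0.97) and Acod1 (0.97), the enzyme that makes itaconate. S100a8 was most like Klra2 (0.98), Twf1 (0.97) and Trem1 (0.96), and Hp was most like Sod3 (0.91), Maff (0.88) and Maged2 (0.85). The counts of Saa3 per count of Lcn2 had group medians of 4.81 to 20.2, so the pair moved together in level but not at a fixed ratio. The ratio was 8.91 in unprefixed KO and 9.59 in WT of 1 month, and 9.92 in unprefixed KO and 16.8 in WT of 6 months.

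Lcn2 and Saa3 rose and fell alike over the groups, though at different levels, and calprotectin's partners differed much in count. The 250 bases upstream of the RefSeq starts (GRCm38.p6) of Lcn2, Saa3, S100a8 and S100a9 are therefore given. They run 5′ to 3′ on the gene's strand, with matches to the C/EBP motif in capitals. RefSeq windows were found for 9 of the 10 genes. RefSeq starts need not match the bounds of the genes as counted. The Lcn2 window lies wholly within the counted gene, and the Saa3 and S100a8 windows run into theirs.
Lcn2, chr2:32387740-32387989, minus strand: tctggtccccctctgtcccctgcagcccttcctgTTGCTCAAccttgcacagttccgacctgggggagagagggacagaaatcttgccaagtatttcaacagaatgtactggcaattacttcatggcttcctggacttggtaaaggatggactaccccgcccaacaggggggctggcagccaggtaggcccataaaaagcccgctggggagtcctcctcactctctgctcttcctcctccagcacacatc
Saa3, chr7:46715677-46715926, minus strand: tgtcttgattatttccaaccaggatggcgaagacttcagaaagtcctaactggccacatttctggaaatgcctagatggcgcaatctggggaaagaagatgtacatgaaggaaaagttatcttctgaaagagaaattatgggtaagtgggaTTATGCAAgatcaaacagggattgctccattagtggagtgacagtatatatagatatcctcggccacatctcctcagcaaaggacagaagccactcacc
S100a8, chr3:90668821-90669070, plus strand: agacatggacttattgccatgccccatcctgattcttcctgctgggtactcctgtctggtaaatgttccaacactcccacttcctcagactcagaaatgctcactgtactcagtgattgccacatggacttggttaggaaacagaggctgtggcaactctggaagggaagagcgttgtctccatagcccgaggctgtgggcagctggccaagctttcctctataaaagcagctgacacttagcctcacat
S100a9, chr3:90695722-90695971, minus strand: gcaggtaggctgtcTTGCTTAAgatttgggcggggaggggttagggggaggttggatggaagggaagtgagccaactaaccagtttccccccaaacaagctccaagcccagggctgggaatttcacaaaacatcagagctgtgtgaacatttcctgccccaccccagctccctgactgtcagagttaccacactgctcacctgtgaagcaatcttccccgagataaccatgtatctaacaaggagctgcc

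The motifs searched, on both strands, were TTGCNNAA for C/EBP, GGGA and CC with 4 bases of any kind between them for NF-kB, and TTCNNNGAA for STAT. The Lcn2 window held 1 C/EBP match, at bases -216 to -209 from the start, the Saa3 window 1, at -99 to -92, and the S100a9 window 1, at -236 to -229. The S100a8 window held none, nor did those of Camp, Elane and Mpo, while Ltf had 1 and Ngp 2. Of all 32851 windows of this length, 9.56% held a C/EBP match. None of the 9 windows held an NF-kB or a STAT match, which 17.6% and 7.02% of all windows held. A match is a run of letters and not a bound site, and its absence says only that these letters are not in this window.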

How the data were processed

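RNA-seq counts per gene were deposited for each of the 30 libraries. Per the file headers, the authors counted reads with featureCounts 1.6.0 on STAR alignments, against the Ensembl 88 annotation of GRCm38; the submitters' processing notes also name HTSeq and mm10. The headers record no strand or multimapping option. Symbols were matched for 50376 of 50686 identifiers.

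edgeR 4.0.16 (limma 3.58.1, R 4.3.3) was run on the deposited counts with TMM scaling, its filter on low counts (15310 genes kept) and 1 coefficient per group over all 30 libraries. Benjamini-Hochberg adjustment covered all genes kept, with a threshold of 0.05, and SE is the log2 fold change divided by the root of F. The 10 genes and the gene lists were chosen with earlier results of these data known. Named genes are those 10, listed genes of each role, and the 3 genes most like each tested gene among those at 5 CPM or more in a group (Pearson correlation over group means, prior count 2). Alternatives were DESeq2 1.42.0, other size factors, no filter, only the compared groups, a replicate block, leaving out unused libraries of sets 519 and D1, and leaving out each library. Same-numbered samples share only a number: no comparison had a correlation of deviations above 0.1 in every pair (range -0.25 to 0.25). Intervals are exact Poisson at 95%, and a count of 0 was read as a limit of 3 counts.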

Additional observations from a re-analysis of the deposited data

Results flagged for a closer look

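For 6 values the effect of a contrast differed between groups by a direct test of the difference (edgeR's quasi-likelihood test with Benjamini-Hochberg adjustment). The KO effect at 6 months minus that at 1 month, in unprefixed cultures, was 2.93 on the log2 scale for Lcn2 (adjusted p = 3.8e-09), 2.25 for Saa3 (1.8e-08) and -2.12 for Hp (1.2e-05). The effect of the multinucleated against the 2-day stage at 20 months minus that at 6 months was 1.32 for Saa3 (adjusted p = 0.0047). The effect of donor age in set 519 KO minus that in unprefixed KO was 2.31 for Saa3 (adjusted p = 8.1e-06) and 1.79 for Lcn2 (0.0071), the Lcn2 call being lost without set 519 replicate 3 of 1 month (1.49, adjusted p = 0.075).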

How the results depend on the processing

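Among values called in the main run or in the alternative, no log2 fold change of the 4 tested genes changed sign. Sign changes of values called in neither were not counted. Of 984 alternative values, 933 kept their call, 27 gained one (10 of them on leaving out a library) and 24 lost one (18 on leaving out a library). With no filter on low counts, calls were added in several comparisons, of which only some are given here. S100a9 was then called as lower than in unprefixed WT of 1 month in unprefixed KO of 1 month, WT of 6 months and set D1 (-4.545 in each). In that WT group its only counts were 11 in replicate 4, and none of these differences passed in DESeq2's Wald test. With no filter, the number of the 10 genes called was 5 instead of 3 for WT of 20 months against 1 month. It was also 5 instead of 3 for 2-day cultures of 20 against 6 months and for set D1 against unprefixed WT. It was 4 instead of 2 for the stage effect at 20 months, which fell to 1 when the unused libraries of sets 519 and D1 were left out. For the difference in stage effect between ages it was 2 instead of 1 with no filter, with DESeq2 and with the replicate block, through Hp (1.33, adjusted p = 0.044 with the block). The block also took the Hp calls of KO against set D1 (-0.49, adjusted p = 0.070) and of set 519 against unprefixed KO at 6 months (-0.85, adjusted p = 0.082) and gave one in the age difference between KO sets (1.85, adjusted p = 0.045); it changed no other count of calls. On leaving out each library, the count ran from 1 to 3 for the stage effect at 20 months, 1 to 2 for the difference in stage effect, 1 to 2 for age in set 519 KO and 1 to 3 for the age difference between KO sets. The cause was not tested. Fitting only the compared groups gave 3332 calls over all genes instead of 2188 for WT of 20 against 6 months and 2868 instead of 1896 for the difference in stage effect. Leaving out a library gave as few as 1343 calls for WT of 20 against 6 months (without WT replicate 4 of 20 months) and 1739 instead of 2880 for 2-day cultures of 20 against 6 months (without replicate 2 of 6 months). Depth limits S100a9, Ngp, Camp, Ltf, Elane and Mpo, whose differences were mostly not detectable at these counts.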
